A study of Mus musculus with 2 samples.

Results

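The genes described are the 8 inflammatory fibroblast genes *Il6*, *Lif*, *Has1*, *Has2*, *Ugdh*, *Tnfaip6*, *Ptgs2* and *Ptx3*, out of 32285 genes in the files. They were chosen by measured values of these same libraries, namely their detection in fibroblasts and in the cells that hold *Il6*, so those levels are given as a description and support nothing by themselves. The data were 2 scRNA-seq libraries of palatal gingiva from female C57BL/6 (C57Bl6/J) mice, 8 to 12 weeks old. Each palate received 3 µl of 1 µg/ml of a ligand and was covered by an oral appliance for 1 h, and the gingiva was taken on day 4. The TLR9 ligand was CpG ODN, a synthetic oligonucleotide with unmethylated CpG motifs, and the TLR2/4 ligand was LPS of *Porphyromonas gingivalis*. Cells of 4 mice, 2000 to 3000 from each, were pooled into 1 library per ligand. No untreated library is used here, so differences between the libraries compare the ligands only with each other. With 1 library per ligand there is no replicate and no test.

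IL-6 is a secreted cytokine that signals through gp130 and STAT3, and LIF is a cytokine of the same family. HAS1 and HAS2 are membrane enzymes that make hyaluronan, the large sugar polymer of soft connective tissue, and UGDH makes UDP-glucuronic acid, which is needed for that polymer. TNFAIP6 (TSG-6) binds hyaluronan and transfers heavy chains onto it. PTX3 is a soluble pattern recognition protein that joins the same matrix, and PTGS2 (COX-2) is the inducible enzyme of prostaglandin synthesis. In stromal cells of inflamed tissue several of these genes are known targets of NF-κB, C/EBP or AP-1 signals.

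The bases before the start sites of 7 of the 8 genes, all but *Has2*, were read from RefSeq promoters of build GRCm38.p6. Of the 6 windows with a motif match, shown here are the 5 whose genes had at least 20 UMIs in core fibroblasts, which leaves out *Lif*. Each is the 250 bases before the start, 5′ to 3′ on the strand of the gene, and capitals mark letters that match a motif. The motifs searched on both strands were NF-κB (GGANTTTCC or GGGANTTCC), AP-1 (TGACTCA or TGAGTCA, which are reverse complements of each other), CRE (TGACGTCA), C/EBP (TTGCGCAA or TTGCACAA) and the TATA box (TATAAA). The windows are chr5:30012864-30013113 (plus strand) for *Il6*, chr1:150099781-150100030 (plus) for *Ptgs2*, chr3:66219637-66219886 (plus) for *Ptx3*, chr2:52037863-52038112 (plus) for *Tnfaip6* and chr17:17855189-17855438 (minus) for *Has1*, and their starts are those of RefSeq, which can lie some bases from the gene starts given further on.
Il6: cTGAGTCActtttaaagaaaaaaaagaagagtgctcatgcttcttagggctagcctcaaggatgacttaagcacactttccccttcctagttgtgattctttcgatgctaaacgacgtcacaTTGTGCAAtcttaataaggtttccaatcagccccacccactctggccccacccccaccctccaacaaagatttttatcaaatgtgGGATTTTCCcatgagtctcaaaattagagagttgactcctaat
Ptgs2: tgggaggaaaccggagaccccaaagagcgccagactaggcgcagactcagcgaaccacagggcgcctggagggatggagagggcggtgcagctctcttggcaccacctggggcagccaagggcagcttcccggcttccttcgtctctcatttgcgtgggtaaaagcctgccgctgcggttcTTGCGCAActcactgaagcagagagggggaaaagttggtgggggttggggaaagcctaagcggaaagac
Ptx3: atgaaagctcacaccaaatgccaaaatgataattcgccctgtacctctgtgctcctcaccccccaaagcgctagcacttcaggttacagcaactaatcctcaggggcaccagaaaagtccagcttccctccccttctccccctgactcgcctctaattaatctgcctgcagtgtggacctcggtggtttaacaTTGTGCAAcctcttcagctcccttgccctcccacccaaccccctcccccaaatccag
Tnfaip6: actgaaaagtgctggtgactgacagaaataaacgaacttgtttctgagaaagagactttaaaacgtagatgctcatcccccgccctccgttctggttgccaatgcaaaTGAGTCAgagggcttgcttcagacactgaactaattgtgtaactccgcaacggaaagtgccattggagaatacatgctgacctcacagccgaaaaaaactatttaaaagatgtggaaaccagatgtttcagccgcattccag
Has1: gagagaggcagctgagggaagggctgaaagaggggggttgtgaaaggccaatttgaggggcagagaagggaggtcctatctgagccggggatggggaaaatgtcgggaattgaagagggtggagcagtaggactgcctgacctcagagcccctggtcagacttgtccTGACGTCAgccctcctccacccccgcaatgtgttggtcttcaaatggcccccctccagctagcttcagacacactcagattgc

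The C/EBP letters stood in the windows of 3 of the 7 genes, *Il6*, *Ptgs2* and *Ptx3*, and in 1.06% of all 32851 promoters of that length. The AP-1 letters also stood in 3, *Il6*, *Tnfaip6* and *Lif*, against 4.46% of all promoters. The NF-κB letters were found in *Il6*, from 43 to 35 bases before its start, against 2.46% of all promoters. The CRE letters were found in *Has1*, against 1.55%. TATAAA was in none of the 7 and in 12.4% of all promoters, and *Ugdh* had no match at all. A match is a description of these letters and not of binding.

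There were 6219 barcodes after CpG ODN, carrying 72173148 UMIs (unique molecular identifiers, 1 per captured RNA molecule), and 2016 after LPS, carrying 38656738. A minimum of 800 detected genes left 4888 and 1277 cells, with medians of 11077.5 and 22680 UMIs. The libraries shared 5 barcodes, of which 1 was kept in both and 0 were fibroblasts in both. Fibroblasts were gated as cells with at least 2 UMIs of *Dcn* and *Lum* together and less than 0.5% of UMIs from *Krt5* and *Krt14*, which gave 259 cells (5.30%) after CpG ODN and 89 (6.97%) after LPS.

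This gate did not hold fibroblasts alone. In 40 of the 259 and 35 of the 89 cells, *Dcn* and *Lum* together had only 2 to 9 UMIs, and these cells carried 37.6% and 77.5% of all UMIs of the gate. In the 35 LPS cells *Dcn* had 115 UMIs, *Lum* 0, *Col1a1* 0 and the oral keratin *Krt13* 58184. Across the 8 fibroblast markers their summed level was 81.3 CPM (UMIs per 1000000 UMIs of the cells), with 3 of 8 markers found, and across 14 epithelial markers it was 68063 CPM. The 40 CpG ODN cells held more fibroblast RNA, with 18 UMIs of *Lum*, 106 of *Col1a1* and 12313 of *Krt13*. In them 8 of 8 fibroblast markers were found, at 981 CPM, and epithelial markers were at 49042 CPM. Just outside the gate, the 65 and 40 cells with 1 UMI of *Dcn* and *Lum* had 0 UMIs of *Il6* and of *Has1* in either library. The 24 and 27 cells with at least 10 such UMIs but 0.5 to 1% keratin had 0 and 1 of *Il6* and 0 of *Has1*. Values are therefore given for the gate and for core fibroblasts, a choice made after seeing the data. Core fibroblasts are gated cells with at least 10 UMIs of *Dcn* and *Lum* and less than 0.5% of UMIs from 7 other keratins. They also have fewer than 3 different markers of any other non-epithelial class, hemoglobin aside. The 14 epithelial markers were not counted in this.

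There were 212 core fibroblasts after CpG ODN (4.34% of cells, 95% exact interval 3.78 to 4.95%) and 49 after LPS (3.84%, 2.85 to 5.04%), with medians of 3977 and 8460 UMIs. All 8 fibroblast markers were found in both sets, *Col1a1* in 97.2% and 93.9% of cells. Markers of B cells reached 10.2 and 2.53 CPM, of endothelial cells 2.26 and 7.59, of mural cells 145 and 167, of Schwann cells 129 and 116, of myeloid cells 10.2 and 17.7, and of T or NK cells 0 and 0. Epithelial markers were at 817 and 384 CPM, with 12 and 13 of 14 found, and red cell markers at 1750 and 1907 CPM, with 4 of 4 found in both sets, against 51230 and 40602 CPM for the fibroblast markers. The sets still differed in kind. *Acta2*, the smooth muscle actin of contractile cells, had 9 UMIs after CpG ODN and 295 after LPS, of which 284 lay in 7 cells that also held 187 UMIs of *Tagln* and none of *Myh11*, *Rgs5* or *Pi16*. The part of these cells in the differences between libraries was not tested, and values without the *Acta2* cells are given below.

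*Il6* (ENSMUSG00000025746, chr5:30013114-30019981, plus strand) had 61 UMIs in 25 of 212 core fibroblasts after CpG ODN and 26 UMIs in 6 of 49 after LPS. The levels were 69.0 CPM (52.8 to 88.6) and 65.8 CPM (43.0 to 96.3), and the intervals overlapped almost wholly. All intervals are 95% and cover counting error only, not the spread between mice or cells. A single LPS cell held 18 of the 26 UMIs, and the highest CpG ODN cell 10 of 61. The share of cells with a UMI was 11.8% (7.78 to 16.9%) and 12.2% (4.63 to 24.8%), and 7.56% and 4.42% when each cell was thinned to 1500 UMIs, which left out 1 and 0 cells. B-like cells stand for free RNA, since they should hold few of these transcripts. They had an *Il6* UMI in 1 of 508 cells and in 0 of 73 (which allows up to 4.11%), at medians of 2905 and 3207 UMIs, and of the other members only *Ugdh* was found in them, in 3.54% and 5.48% of cells.

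Fibroblasts were not the only cells with *Il6*. Of 137 UMIs in the kept cells of the CpG ODN library, 66 (48.2%) were in the fibroblast gate, 29 in 46 endothelial-like cells, 20 in 3503 *Krt5*/*Krt14* keratinocytes and 18 in 64 mural-like cells (classes named from at least 2 different markers per cell). The level was 143 CPM (95.6 to 205) in endothelial-like cells, 69.0 in core fibroblasts and 57.5 (34.1 to 90.8) in mural-like cells, then 10.6 with 2 UMIs in myeloid-like cells and 0.360 (0.220 to 0.556) in keratinocytes. Core fibroblasts were 192-fold (114 to 335) above the last, which was no higher than the 0.401 CPM of B-like cells. This and the later folds over keratinocytes are ratios of measured levels, with any free RNA included. Core fibroblasts and mural-like cells had overlapping intervals. A single endothelial-like cell held 13 of the 29 UMIs, and without it the level of that class was 80.3 CPM, close to core fibroblasts. In the LPS library 30 of 53 UMIs (56.6%) were in the gate, 20 in keratinocytes, of which 8 in a single cell, 2 in 22 endothelial-like cells and 1 in 17 mural-like cells. The endothelial-like CpG ODN/LPS ratio was 9.29 (2.35 to 80.3), with only 2 LPS UMIs. *Il6* had no UMI in Schwann-like cells of either library.

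*Lif* (ENSMUSG00000034394, chr11:4257557-4272514, plus strand) was rare in the fibroblasts. It had 2 UMIs in 212 core fibroblasts and 4 in 49, of which 3 in a single cell. Of its 58 UMIs after CpG ODN, 50 (86.2%) were in *Krt5*/*Krt14* keratinocytes, spread over 46 cells, and of 39 after LPS, 17 were in these keratinocytes and 11 in 35 cells of no class. On the CPM scale core fibroblasts were 2.51-fold (0.296 to 9.57) above these keratinocytes after CpG ODN and 15.3-fold (3.74 to 46.8) after LPS, on 2 and 4 fibroblast UMIs. At these counts a difference between the ligands in fibroblasts was not detectable.

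Among the hyaluronan genes, *Has1* UMIs lay mostly in fibroblasts, while most *Ugdh* UMIs lay in keratinocytes. *Has1* (ENSMUSG00000003665, chr17:17843323-17855205, minus strand) had 177 UMIs in 47 core fibroblasts after CpG ODN (200.2 CPM, 172 to 232) and 42 UMIs in 8 after LPS (106 CPM, 76.6 to 144). The gate held 92.7% of its 206 UMIs in the CpG ODN library and 75.0% of its 56 in the LPS library. Its intervals did not overlap between the libraries, and the ratio was 1.89 (1.34 to 2.71), or 1.38 without the *Acta2* cells and 2.44 (1.62 to 3.79) without the core cell of each library with the most *Has1* UMIs. *Has2* (ENSMUSG00000022367, chr15:56665627-56694539, minus strand, overlapped by the antisense gene *Has2os*) had 42 UMIs in 29 core cells and 16 in 10, 47.5 CPM (34.2 to 64.2) and 40.5 CPM (23.1 to 65.7), with no cell above 6 UMIs. Keratinocytes held 22 and 28 *Has2* UMIs, of which 11 of the 28 in a single cell, at 0.396 and 1.09 CPM (ratio 0.363, 0.198 to 0.658). These levels are below the 1.20 and 10.51 CPM that 0 UMIs in B-like cells allow, though the 28 UMIs after LPS lay in only 15 cells. The part of free RNA in them was not tested.

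*Ugdh* (ENSMUSG00000029201, chr5:65413221-65435949, minus strand, overlapped by 2 other gene IDs on the same strand) had 1896 and 1013 UMIs in all kept cells, of which 75.2% and 74.3% were in *Krt5*/*Krt14* keratinocytes. On the CPM scale it was still 14.9-fold (13.2 to 16.8) and 10.9-fold (8.99 to 13.2) higher in core fibroblasts than in those keratinocytes, at 383 CPM (344 to 427) and 321 CPM (268 to 382). Within the keratinocytes it was graded. In those with less than 0.5% of UMIs from *Krt10* and from *Krt76*, keratins of more mature layers, it had 43.4 CPM (40.8 to 46.1) and 48.4 CPM (44.7 to 52.4). With *Krt76* but not *Krt10* it had 14.0 and 14.5 CPM, and with *Krt10* 4.56 and 3.67 CPM, and the 3 intervals did not overlap in either library.

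*Tnfaip6* (ENSMUSG00000053475, chr2:52038009-52056686, plus strand) was the member found in most fibroblasts apart from *Ugdh*. It had 303 UMIs in 93 of 212 core cells (43.9%) and 129 in 22 of 49 (44.9%), 343 CPM (305 to 384) and 326 CPM (272 to 388). In the LPS library 64 of the 129 UMIs lay in a single cell, without which the level was 168 CPM. The gate held 88.7% and 89.1% of all *Tnfaip6* UMIs. The class with the next level was Schwann-like cells, with 13 UMIs in 7 of 24 cells after CpG ODN (158 CPM, 84.4 to 271) and 3 UMIs in 1 of 11 cells after LPS, while the 46 endothelial-like cells after CpG ODN had 0 UMIs, which allows 14.8 CPM.

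*Ptx3* (ENSMUSG00000027832, chr3:66219910-66225805, plus strand, inside the antisense gene *Veph1*) was the most fibroblast-bound of the set after CpG ODN. There 47 of its 49 UMIs (95.9%, 86.0 to 99.5%) were in 26 core fibroblasts. After LPS it had 4 UMIs in 4 core cells and 3 in endothelial-like cells. The levels were 53.2 CPM (39.1 to 70.7) and 10.1 CPM (2.76 to 25.9), without overlap of the intervals. *Ptgs2* (ENSMUSG00000032487, chr1:150100031-150108227, plus strand) had 48 UMIs in 19 core cells and 8 in 6, 54.3 CPM (40.0 to 72.0) and 20.2 CPM (8.74 to 39.9), with a gap of hardly any width between the intervals. Most of its UMIs lay in *Krt5*/*Krt14* keratinocytes, 99 of 165 and 60 of 109, almost all of them in the cells without *Krt10* and *Krt76* (91 and 57). On the CPM scale core fibroblasts were still 30.5-fold (21.1 to 43.4) and 8.65-fold (3.57 to 18.2) above these keratinocytes, and myeloid-like cells had 42.3 CPM, with 7 of 8 UMIs in a single cell, and 16.8 CPM with 4 UMIs. The LPS gate also held a cell with 34 *Ptgs2* UMIs, 183 of *Selp*, 38 of *Sele*, 36 of *Vwf* and 73 of *Csf3*, with 8 endothelial markers and no *Col1a1*, which the core leaves out.

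**Figure D1:**
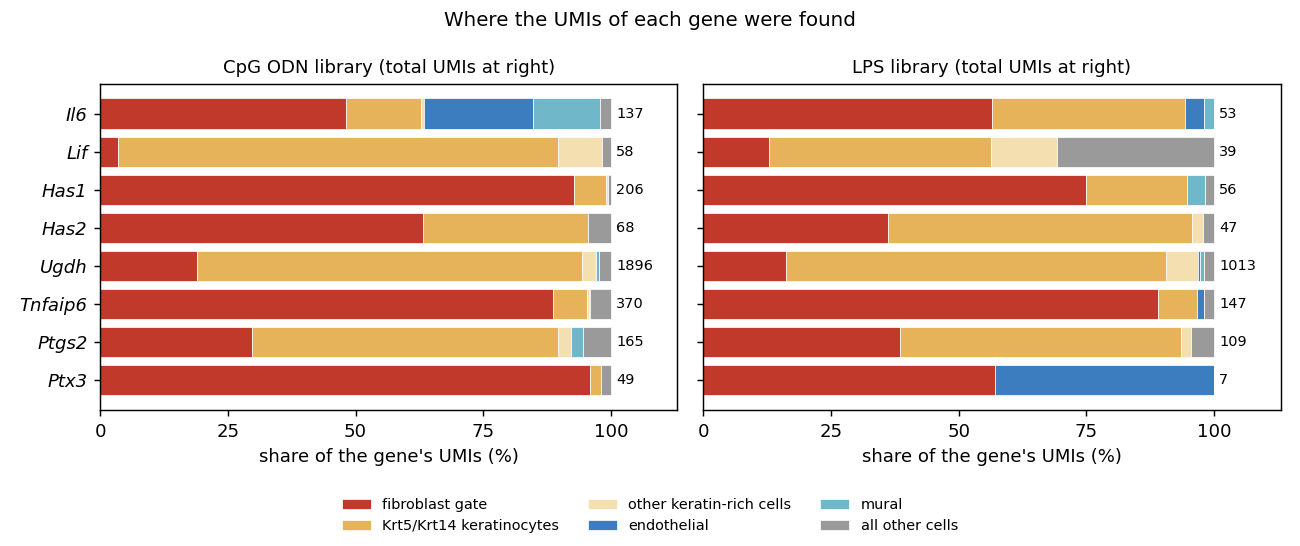
Stacked bars give the share of the UMIs of each gene, in percent, found in each class of kept cells, for the CpG ODN library (left) and the LPS library (right), with the total number of UMIs beside each bar. *Has1* and *Tnfaip6* lie mostly in the fibroblast gate in both libraries, whereas *Ugdh* and *Ptgs2* lie mostly in keratinocytes.

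The question the design poses is whether the genes differed between the ligands, and the answer depended on which cells were counted as fibroblasts. In the gate as set, the CpG ODN/LPS ratio of CPM was 3.15 (2.02 to 5.03) for *Il6*, 6.51 (4.64 to 9.33) for *Has1*, 3.62 (2.02 to 6.77) for *Has2*, 3.15 (2.61 to 3.81) for *Ugdh*, 3.59 (2.92 to 4.42) for *Tnfaip6* and 16.8 (6.15 to 64.3) for *Ptx3*. It was 1.67 (1.08 to 2.59) for *Ptgs2*, of which a single LPS cell held 34 of 42 UMIs, and 7.63 (3.55 to 18.8) without the richest cell of each library. So, with all gated cells, 6 of 7 members with at least 20 UMIs were at least 2-fold higher and 0 lower, where 19.7% of all 10093 such genes were higher and 6.64% lower, and 17 of 20 fibroblast subset genes, collagens among them, were higher too. The call rests on summing UMIs. By the mean over cells, *Il6* (1.99), *Has2* (1.62), *Ugdh* (1.87) and *Tnfaip6* (1.70) were under 2-fold, and by shares of thinned cells *Has2* (1.61) and *Ugdh* (1.90) were.

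In core fibroblasts the ratios moved close to 1 for most members. They were 1.05 (0.653 to 1.73) for *Il6* and 1.17 (0.646 to 2.24) for *Has2*. For *Ugdh* and *Tnfaip6* they were 1.19 (0.971 to 1.48) and 1.05 (0.852 to 1.30). These intervals hold 1, but they cover counting error only and do not bound the difference between the ligands. A single LPS cell held 18 of the 26 *Il6* UMIs and 64 of the 129 *Tnfaip6* UMIs. *Has1* was at 1.89 (1.34 to 2.71). *Ptgs2*, at 2.68 (1.26 to 6.57), and *Ptx3*, at 5.26 (1.92 to 20.1), were the 2 of 7 past 2-fold, both higher after CpG ODN, where 5.40% of 7033 genes were higher and 4.29% lower. The median log2 ratio was 0.26 over the 7 members and -0.01 over all genes. Without the core cell of each library with the most UMIs of the gene, the ratio was 2.80 for *Il6* and 2.44 for *Has1*, which put both past 2-fold, 1.86 for *Tnfaip6*, and 6.08 for *Ptx3* and 3.07 for *Ptgs2*. Without the *Acta2* cells it was 0.705 for *Il6*, 1.38 for *Has1*, 0.831 for *Tnfaip6*, 3.77 for *Ptx3* and 3.85 for *Ptgs2*. *Ptgs2* and *Ptx3* thus stayed past 2-fold in each of these core sets, on at most 8 and 4 LPS UMIs. With the cell of endothelial markers back in, among all gated cells with at least 10 UMIs of *Dcn* and *Lum*, *Ptgs2* was at 0.603.

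**Figure D2:**
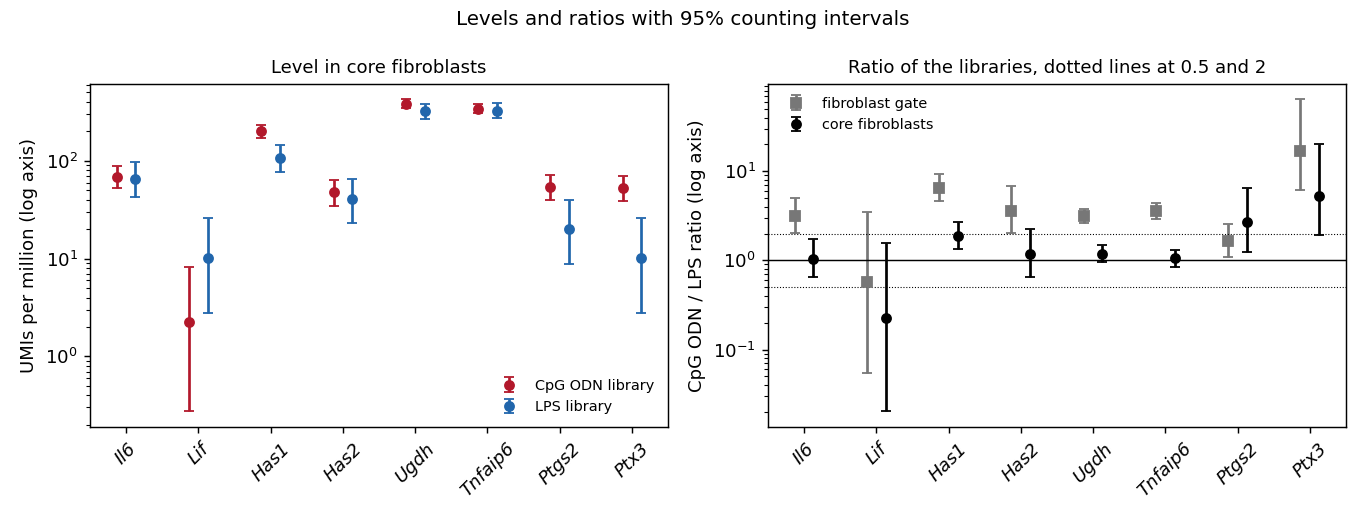
Left, the level of each gene in core fibroblasts as UMIs per 1000000 on a log axis, 1 point per library. Right, the CpG ODN/LPS ratio on a log axis in the fibroblast gate (squares) and in core fibroblasts (circles), with bars for 95% counting intervals and dotted lines at 0.5 and 2. The ratios of *Il6*, *Has2*, *Ugdh* and *Tnfaip6*, above 3 in the gate, have core intervals that hold 1, while those of *Has1*, *Ptgs2* and *Ptx3* lie above 1 in the core.

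In *Krt5*/*Krt14* keratinocytes most members had no higher CPM than B-like cells, taken for free RNA, had or than 0 UMIs in them allow. B-like cells had 0.401 CPM of *Il6* after CpG ODN, with 1 UMI, against 0.360 in keratinocytes. In them 0 UMIs of a gene allow 1.20 and 10.51 CPM. This is above the keratinocyte level of *Lif*, *Has1*, *Has2* and *Tnfaip6* in both libraries and of *Il6* and *Ptgs2* after LPS. *Ptgs2* after CpG ODN, at 1.78 CPM (1.45 to 2.17), was above the 1.20. The 10.51 CPM after LPS is 3 counts over the 285447 UMIs of 73 B-like cells. So few UMIs cannot tell expression from free RNA at these levels. The depths were unlike, with medians of 12513 and 24544 UMIs in keratinocytes against 2905 and 3207. By cells, *Lif* was in 1.31% (0.963 to 1.75%) of keratinocytes after CpG ODN and in 0 of 508 B-like cells (which allows 0.591%). After LPS single keratinocytes held 11 of 28 *Has2*, 9 of 11 *Has1* and 8 of 20 *Il6* UMIs, and the 60 of *Ptgs2* lay in 21 cells. The part of free RNA was not tested. *Ugdh* had 25.7 and 29.4 CPM against 7.62 (4.59 to 11.9) and 14.0 (3.82 to 35.9) in B-like cells. The ratios that follow are therefore given as values, and no difference in expression is read from them. No member with at least 20 UMIs was 2-fold higher after CpG ODN when all cells were counted. *Il6*, at 0.462 (0.236 to 0.904) with 20 UMIs in each library, was under 0.5, as was *Has2*, but without the cell richest in the gene in each library they were at 0.654 (0.294 to 1.501) and 0.542 (0.270 to 1.10). *Has1* was at 0.546 (0.226 to 1.35), or 2.77 (0.616 to 25.5) without those cells. *Ugdh* was at 0.874 (0.800 to 0.956), *Ptgs2* at 0.762 (0.547 to 1.07), *Lif* at 1.36 (0.770 to 2.51) and *Tnfaip6* at 1.05 (0.498 to 2.36).

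Most members were found in the same fibroblasts as *Il6* more often than the product of their shares. Of 31 core fibroblasts with an *Il6* UMI, 24 had one of *Tnfaip6*, 22 of *Ugdh*, 17 of *Has1*, 10 of *Ptx3*, 6 of *Ptgs2*, 5 of *Has2* and 1 of *Lif*. The expected numbers, from the shares within each library, were 13.7, 15.0, 6.52, 3.56, 2.98, 4.64 and 0.481. The observed over expected ratio was thus 2.81 for *Ptx3*, 2.61 for *Has1*, 2.02 for *Ptgs2*, 1.76 for *Tnfaip6* and 1.47 for *Ugdh*, whereas *Has2* stood at 1.08. In the CpG ODN library alone *Has1* was in 52.0% of *Il6*+ core cells and in 18.2% of the others, and after LPS in 4 of 6 and in 9.30% of the others. For *Has2* the same shares were 12.0% and 13.9% after CpG ODN, and 2 of 6 and 18.6% after LPS.

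Depth raises co-detection, so the deeper cells were also taken alone. Among core cells with at least the median UMIs of their library, the ratio was 2.86 for *Ptx3*, 1.96 for *Has1*, 1.55 for *Tnfaip6* and 1.38 for *Ugdh*, and 0.927 for *Ptgs2* with 2 cells. The *Il6*+ core cells had a median of 3789 UMIs against 3983 in the rest after CpG ODN, and of 9376 against 8213 after LPS. The other 7 members summed to 2589 CPM in *Il6*+ cells and 896 CPM in the rest after CpG ODN, and to 2907 and 490 CPM after LPS. A single one of the 6 *Il6*+ LPS cells held 64 UMIs of *Tnfaip6* and 27 of *Ugdh*, and the sum without it is not given here. These are descriptions, since co-detection chose the genes and cells of 1 library are not replicates.

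**Figure D3:**
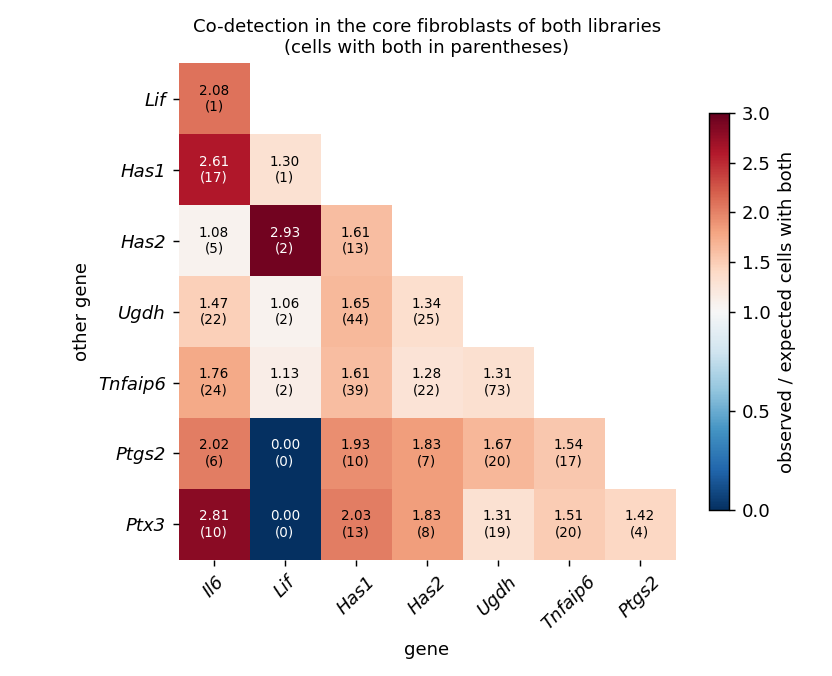
Each square gives, for a pair of genes, the number of core fibroblasts of both libraries with a UMI of both, over the number expected from the shares in each library, with the cells that have both in parentheses. White is at 1, and *Il6* with *Ptx3* and with *Has1* reach 2.81 and 2.61, while squares of *Lif* rest on at most 2 cells.

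Few cells had most of the genes. At least 1 member was found in 156 of 212 core cells (73.6%) after CpG ODN and in 35 of 49 (71.4%) after LPS, and at least 3 in 55 (25.9%) and 12 (24.5%). No cell had more than 6, which 3 and 1 cells had. These counts are at unequal depth, with medians of 3977 and 8460 UMIs. With each cell thinned to 1500 UMIs the share with a UMI was lower after LPS for 7 of the 8 genes, all but *Lif*, for example 30.9% and 21.6% for *Ugdh*, 28.1% and 19.2% for *Tnfaip6* and 14.6% and 7.87% for *Has1*. How many of all genes were lower in this way is not given here, so nothing particular to the members is read from it. The CpG ODN cell with the most member UMIs held 30 of *Tnfaip6*, 22 of *Has1*, 7 of *Ugdh* and 6 of *Ptx3* but no *Il6*. The LPS cell with the most held 64 of *Tnfaip6*, 27 of *Ugdh*, 18 of *Il6*, 4 of *Has2* and 3 of *Has1*, together with 86 UMIs of the chemokine *Ccl2*.

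**Figure D4:**
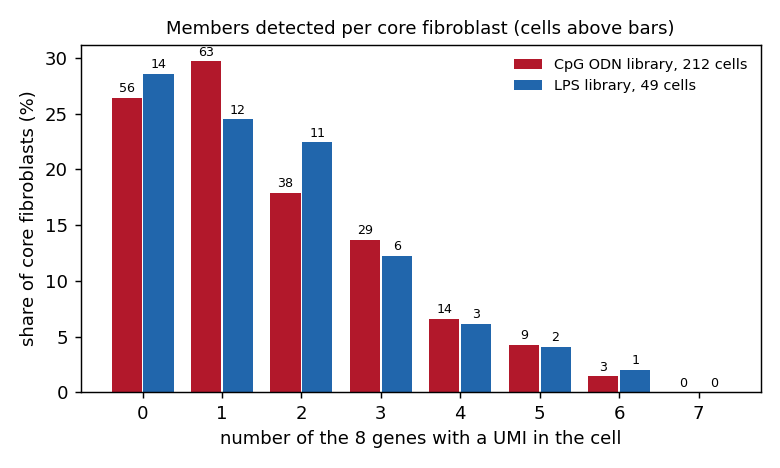
Bars give the share of core fibroblasts, in percent, with a UMI of 0 to 7 of the 8 genes, for the 212 cells of the CpG ODN library and the 49 of the LPS library, with the number of cells above each bar. At 3 genes or more are 25.9% and 24.5% of cells, at unequal median depths of 3977 and 8460 UMIs.

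Outside the set, the gene most like *Il6* across core fibroblasts was the chemokine gene *Cxcl1*. By the mean over both libraries of Pearson's r across 212 and 49 cells, among 4628 genes found in at least 10 core cells of each, the first 10 with the members left out were *Cxcl1* (0.49), *Maff* (0.43), *Ifrd1* (0.42), *Egr3* (0.40), *Slc41a1* (0.38), *Tnfaip3* (0.38), *Cebpb* (0.37), *Calcrl* (0.36), *Msl2* (0.34) and *Stk40* (0.34). The libraries weighed unequally in these means, with r of 0.12 after CpG ODN and 0.59 after LPS for *Calcrl*, 0.19 and 0.62 for *Egr3* and 0.16 and 0.52 for *Msl2*, against 0.38 and 0.59 for *Cxcl1* and 0.43 and 0.44 for *Maff*. The LPS values rest on 6 cells with *Il6*, of which 1 held 18 of 26 UMIs. *Cxcl1* encodes a chemokine for neutrophils, *Tnfaip3* the A20 brake on NF-κB, and *Cebpb* the factor C/EBPβ. Of the members found in as many cells, *Tnfaip6* (0.47) and *Ugdh* (0.34) would have stood among these 10. In the gate *Cxcl1* (0.43), *Ifrd1*, *Maff* and *Egr3* (0.36) were the first 4 of 8532 genes with the members left out, while *Tnfaip6* was above all 4 at 0.46 and *Ugdh*, at 0.36, just above *Egr3*.

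The genes outside the set most like the summed members, *Cxcl1* and *Ifrd1* again among them, were led by *Uap1* (0.55), an enzyme that makes UDP-N-acetylglucosamine, the other sugar of hyaluronan, and *Scara5* (0.53), followed by *Cxcl1* (0.51), *Mt2* (0.51), *Ifrd1* (0.51), *Tnxb* (0.49), *Clec3b* (0.46), *Nfkbia* (0.46), *Pcolce2* (0.45) and *Csrnp1* (0.45). In the gate the order was *Scara5* (0.60), *Uap1* (0.59), *Tnxb* (0.57), *Cd34* (0.57), *Ebf1*, *Clec3b*, *Pcolce2*, *Ecm1*, *Olfml2b* and *Cd248*. The gate also holds keratin-rich cells, whose part in these values was not tested. In the core the sum itself went most with *Ugdh* (0.79) and *Tnfaip6* (0.76), so the order is weighted to them. *Has1* (0.57), *Il6* (0.50), *Has2* (0.39), *Ptgs2* (0.24), *Ptx3* (0.23) and *Lif* (0.12) came after. The cells share a library and differ in depth, so these correlations are descriptions.

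Within core fibroblasts the members were not evenly spread over the cells of the subset genes, and the direction differed from gene to gene. After CpG ODN *Has1* was 9.05-fold (4.49 to 21.3) higher in cells with *Mfap5* than in those without, 6.46-fold (4.50 to 9.47) with *Ly6c1* and 6.26-fold (3.22 to 13.9) with *Cd34*. With *Apod* it was at 0.509 (0.374 to 0.693) and *Ugdh* at 0.413 (0.332 to 0.514), and the 30 cells with *Tnc* held 0 of 61 *Il6* and 0 of 177 *Has1* UMIs. *Il6* was at 0.458 (0.266 to 0.806) with *Postn* and 0.565 (0.327 to 0.966) with *Col15a1* after CpG ODN, but at 12.5 (2.04 to 512) and 9.53 (2.37 to 83.2) after LPS, where a single cell held 18 of its 26 UMIs. *Pi16* and *Col14a1* are given in more detail as examples, picked with these values known. *Pi16*, a mark of adventitial fibroblasts, had a UMI in 120 of 212 and 25 of 49 cells. In these cells *Has1* was 5.67-fold (3.55 to 9.53) and 6.51-fold (2.55 to 21.2) higher than in cells without *Pi16*, *Tnfaip6* 2.81-fold (2.12 to 3.77) and 4.79-fold (2.96 to 8.16), and *Ugdh* 2.03-fold (1.59 to 2.61) and 21.5-fold (8.95 to 67.3). *Il6* was at 1.28 (0.740 to 2.27) after CpG ODN, or 2.32 (1.19 to 4.86) without the cell with 10 UMIs, whereas 25 of its 26 UMIs after LPS were in *Pi16*+ cells, 18 of them in a single cell, and the ratio was 6.42 (0.825 to 289.5) without it. *Has2* was at 1.61 (0.812 to 3.38) and 1.94 (0.620 to 7.11).

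*Col14a1*, which encodes collagen XIV and marks a fibroblast subset, had a UMI in 97 of 212 and 29 of 49 cells. With it *Il6* was 3.14-fold (1.74 to 5.96) higher after CpG ODN and had 25 UMIs against 1 after LPS, of which 18 lay in a single cell with *Col14a1*. *Tnfaip6* was 2.56-fold and 3.02-fold and *Ugdh* 2.91-fold and 2.15-fold higher. Without the LPS core cell with 64 *Tnfaip6* UMIs the *Tnfaip6* ratio after LPS was 1.29 (0.747 to 2.31) for *Col14a1* and 2.07 (1.19 to 3.69) for *Pi16*. *Has1* was 5.06-fold (3.43 to 7.68) higher after CpG ODN but at 0.554 (0.288 to 1.07) after LPS, or 1.53 (0.628 to 4.27) without the LPS cell with 14 of the 42 UMIs. Cells with a UMI of either gene were somewhat deeper, with medians of 4375 against 3740 UMIs for *Col14a1* after CpG ODN and 8903 against 6572.5 after LPS, which bears on who has a UMI. In the 14 LPS core cells with *Acta2*, *Il6* and *Has1* had 0 UMIs, whereas the 6 such cells after CpG ODN held 5 of *Il6* and 0 of *Has1*.

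**Figure D5:**
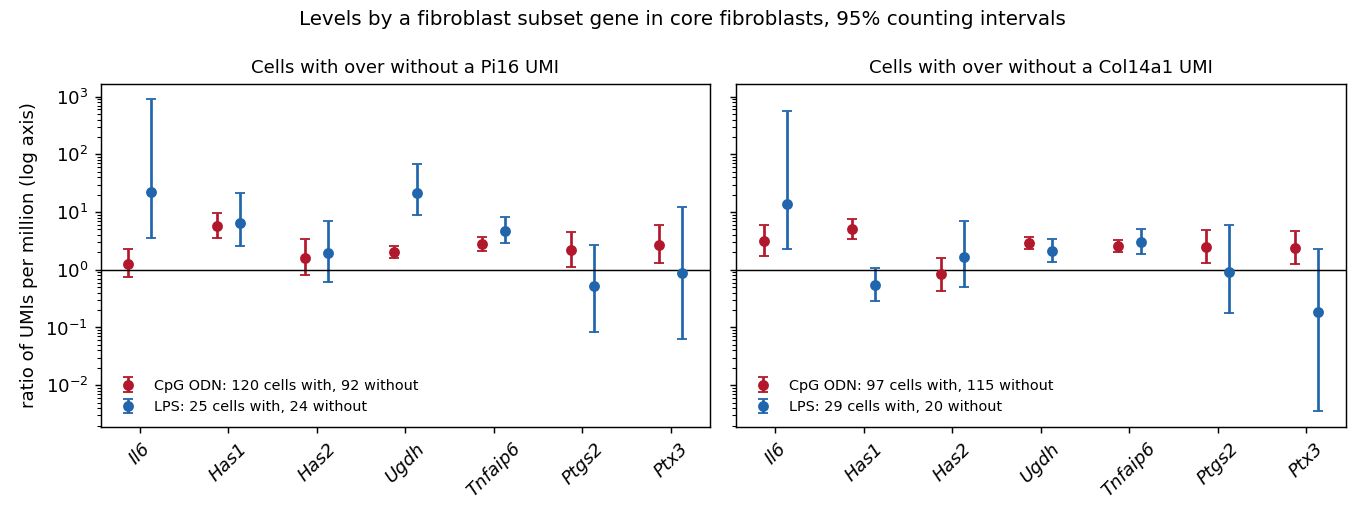
Points give the ratio of UMIs per 1000000 between core fibroblasts with and without a UMI of *Pi16* (left) or *Col14a1* (right), on a log axis, with 95% counting intervals, for 7 members and both libraries. *Tnfaip6* and *Ugdh* lie above 1 in all 4 cases, while *Has1* with *Col14a1* lies on opposite sides of 1 in the 2 libraries, though not without a single LPS cell. Without the LPS cell richest in *Tnfaip6*, the interval of its ratio with *Col14a1* after LPS holds 1.

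Gene lists around the members were read against the same background, 5.40% higher and 4.29% lower in the core. Counts of genes higher or lower are of ratios past 2-fold, with no test. They include *Lifr*, *Bcl3*, *Ptger4* and *Zc3h12a*, whose intervals hold 1. Of the IL-6 family ligands, 8 genes, *Il6* alone reached 20 UMIs, *Il11* had 3 and 0 and *Osm* 0 and 0. Their receptors were present in the same fibroblasts. *Il11ra1* had 661 and 711 CPM, *Il6st* (gp130) 167 and 202, *Cntfr* 114 and 75.9 and *Osmr* 70.1 and 58.2, while *Il6ra* had 31.7 and 30.4, and *Lifr*, at 3.13 (0.935 to 16.4) with 3 LPS UMIs, was 1 of 6 past 2-fold. Of 9 tested STAT3 targets 1 was higher, *Bcl3* at 2.24 (0.841 to 7.48), and those with the most UMIs were *Junb* (1.73, 1.56 to 1.91), *Cebpd* (1.15), *Socs3* (1.35, 1.11 to 1.64) and *Stat3* (1.09).

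For hyaluronan synthesis 0 of 7 tested genes were past 2-fold in the core. *Ugp2* (0.600, 0.439 to 0.824) and *Gfpt2* (0.678, 0.489 to 0.945), which act earlier in the same sugar pathways, had lower levels after CpG ODN, and *Has3* had no UMI. Among the 7 tested genes of hyaluronan binding and breakdown 1 was higher and 1 lower. *Vcan*, a large proteoglycan that binds hyaluronan, had 644 CPM after CpG ODN and 233 after LPS, a ratio of 2.77 (2.22 to 3.49). *Hapln1*, which links proteoglycan to hyaluronan, had 9.05 and 78.4 CPM, a ratio of 0.115 (0.0458 to 0.257). *Itih5* (0.546, 0.418 to 0.715) and *Cd44* (1.18, 0.765 to 1.86) were the others with most UMIs besides *Tnfaip6*.

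Of 8 tested prostaglandin genes, *Ptgs2* was higher and *Pla2g4a* (0.211, 0.0786 to 0.515) and *Ptger4* (0.488, 0.197 to 1.22) were lower. *Ptgis*, the prostacyclin synthase, had 221 and 97 UMIs (ratio 1.02, 0.799 to 1.31), *Ptges3* 172 and 132 CPM, *Ptges* 56.6 and 65.8 CPM and *Ptgs1* 39.6 and 63.2 CPM. In the humoral list *C3* (1.18), *C1s1* (0.880) and *C1ra* (0.842) had the most UMIs, *Ptx3* was higher and *Cfb*, of the alternative complement pathway, was lower (0.476, 0.332 to 0.682).

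Of 24 tested further inflammatory fibroblast genes 4 were higher and 2 lower. *Vcam1* (4.15, 1.91 to 10.7), *Procr* (2.66, 1.55 to 4.83), *Il33* (2.06, 1.61 to 2.65) and *Zc3h12a* (2.06, 0.765 to 6.93) were higher after CpG ODN, and *Cxcl5* (0.398, 0.295 to 0.535) and *Mmp3* (0.411, 0.306 to 0.552) lower. *Cxcl1* (1.44, 1.23 to 1.70), *Ier3* (1.29), *Nfkbia* (1.07) and *Cebpb* (0.990) had the most UMIs, and *Ccl2* was at 0.884 (0.708 to 1.11). Of 8 tested TLR pathway genes 1 was higher, *Myd88* at 2.24 (1.12 to 4.95). *Nfkb1* (0.731), *Rela* (1.12), *Irak1* (0.719) and *Map3k7* (1.09) were not past 2-fold, and *Tlr9* had no UMI in the core fibroblasts of either library, while *Tlr2* had 21 and 12 UMIs and *Tlr4* 16 and 7.

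Of 19 tested fibroblast subset genes 0 were higher and 1, *Acta2* (0.0136), was lower, and those with the most UMIs were *Gsn* (0.815), *Col3a1* (1.63), *Col1a2* (1.43) and *Col1a1* (1.34).

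Immediate early genes, which also rise while tissue is digested, were high in the same cells. The 19 genes of that list summed to 21040 CPM after CpG ODN and 15616 after LPS in core fibroblasts, where 1 of 18 tested, *Egr3* (2.14, 1.30 to 3.72), was past 2-fold and *Fos* (1.51, 1.42 to 1.60), *Egr1* (1.46), *Fosb* (1.11) and *Jun* (1.27) had the most UMIs. The sum was also higher in *Il6*+ core cells, 28647 against 20091 CPM after CpG ODN and 21288 against 14672 after LPS, 1.43-fold and 1.45-fold. The other members, chosen by their detection in such cells, were 2.89-fold and 5.94-fold higher. Much of the latter lay in a single LPS cell, with 64 *Tnfaip6* and 27 *Ugdh* UMIs. The further inflammatory fibroblast genes were 2.01-fold and 2.73-fold higher, and the IL-6 family receptors were at 1.07 and 0.996. The part of digestion in the levels of the members was not tested.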

How the data were processed

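The deposited files hold UMI counts per gene and cell barcode, made by the authors with Cell Ranger 4.0.0 per the file headers, and Seurat is named in the submitters' processing notes. The counts were not normalized, and the genome build behind them is not given in the sources used here, so coordinates are those of GRCm38.p6 with GENCODE M21, matched by gene ID. Cells with at least 800 genes were kept, and no doublet caller was run. Cells with 3 or more markers of another non-epithelial class, hemoglobin aside, were left out of the core. Levels are UMIs per 1000000 UMIs of the cells (CPM). Intervals are 95% and exact (Poisson for levels, conditional binomial for ratios, Clopper-Pearson for shares) and cover counting error only. With 1 library per ligand, genes with at least 20 UMIs in both libraries together are described as past a 2-fold ratio, with no test. A count of 0 allows 3 counts. Co-detection was compared with the product of shares within each library, shares of cells were also computed with each cell thinned to 1500 UMIs, and the deeper cells were taken alone. The named genes are all members, the 4 genes with most UMIs of each list together with those past 2-fold, and the 10 most like *Il6* and like the summed members. A gene of the humoral list is not reported here. The members and lists were chosen with earlier results of these data known, and the core after seeing the data. Python 3.11.15, numpy 2.4.6, scipy 1.17.1 and pandas 2.3.3 were used, and the scripts were tested on simulated data. Alternatives were other fibroblast gates, cells left out, thinning, means over cells and other UMI minimums.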

Additional observations from a re-analysis of the deposited data

Results flagged for a closer look

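Members were also counted in barcodes with fewer than 800 detected genes, which no comparison uses, above the 3 counts that a count of 0 allows. In the 1331 such barcodes of the CpG ODN library *Has1* had 7 UMIs, *Ugdh* 12, *Tnfaip6* 12 and *Ptgs2* 9. Of these, 6 of *Has1*, 2 of *Ugdh*, 10 of *Tnfaip6* and 0 of *Ptgs2* were in the 24 barcodes that meet the *Dcn* and *Lum* gate. Hemoglobin made up 23.5% of the UMIs of the 1331 barcodes. In the 739 such barcodes of the LPS library, where hemoglobin made up 74.8% of UMIs, *Ptgs2* had 6 UMIs, 0 of them in the gate.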

How the results depend on the processing

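No paired analysis was possible because there is 1 library per ligand, and no replicate could be left out for the same reason. Of 96 alternatives to the CpG ODN/LPS ratios in the gate, 47 stayed within the counting interval of the ratio. In the order *Il6*, *Has1*, *Has2*, *Ugdh*, *Tnfaip6*, *Ptgs2* and *Ptx3*, a gate of at least 10 UMIs of *Dcn* and *Lum* gave 1.31, 2.28, 1.28, 1.36, 1.29, 0.603 and 6.08, and a gate on at least 2 UMIs of *Col1a1* gave 1.17, 2.12, 1.17, 1.21, 1.16, 4.18 and 5.56. The core gave 1.05, 1.89, 1.17, 1.19, 1.05, 2.68 and 5.26, and the core without *Acta2* cells 0.705, 1.38, 0.982, 0.922, 0.831, 3.85 and 3.77. The ratios of *Il6*, *Has2*, *Ugdh* and *Tnfaip6* thus lay below 1 in that set, as did that of *Ptgs2* in the first of these gates. None of these was past 2-fold. Without the core cell richest in the gene, ratios that left the interval were 2.44 for *Has1*, 1.32 for *Has2*, 1.49 for *Ugdh*, 1.86 for *Tnfaip6*, 3.07 for *Ptgs2* and 6.08 for *Ptx3*. Without the richest cell of the gate they were 6.68 for *Il6*, 6.39 for *Tnfaip6* and 7.63 for *Ptgs2*. Without gated cells that carry markers of another non-epithelial class they were 2.61 for *Tnfaip6* and 9.14 for *Ptgs2*. Means over cells gave 1.99 for *Il6*, 3.64 for *Has1*, 1.62 for *Has2*, 1.87 for *Ugdh* and 1.70 for *Tnfaip6*. Thinning gave 2.91 for *Has1*, 1.61 for *Has2*, 1.90 for *Ugdh*, 2.22 for *Tnfaip6* and 5.03 for *Ptx3*, and *Il6* shares of gated cells of 6.49% and 2.72%. Of 42 alternatives to co-detection with *Il6* in the gate 6 left the counting interval of the gate's own ratio. They rest on few cells, such as 4 against 0.629 expected for *Has1* after LPS, and their own counting error was not taken into account. *Has1* was at 6.36 in the LPS library alone, *Lif* at 0 in the CpG ODN library alone and in deeper cells, and *Ptgs2* at 0 in the LPS library alone, 0.940 in deeper cells and 0.927 in deeper core cells. Genes at least 2-fold higher after CpG ODN numbered 3164 with at least 5 UMIs, 666 with at least 100 and 380 in the core, against 1989, and those lower 1098, 306 and 302, against 670. Leaving out the cell richest in the gene, chosen after seeing the data, kept 6 of 7 keratinocyte ratios and 13 of 15 ratios each for *Pi16* and *Col14a1* within their counting intervals. The causes were not tested. The counts behind *Lif* in fibroblasts and behind *Ptx3* and *Ptgs2* in the 49 LPS core cells were under 10 UMIs each.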
